A study of Mus musculus with 18 samples.

Results

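The *Wnt* ligand genes *Wnt2*, *Wnt2b*, *Wnt4*, *Wnt5b*, *Wnt7b* and *Wnt11* were followed in embryonic mouse lungs in which *Wnt5a* signaling was disturbed. They were taken by gene symbol, without regard to their values, as 6 of the 23420 rows that each of the 3 deposited tables lists, and all 6 passed the filter on low values in every table. RNA of whole lungs was sequenced in bulk in 3 experiments with 18 libraries in all, 3 from mutant lungs and 3 from controls in each experiment. In the *Vangl1/2* experiment at E12.5 (embryonic day) the controls were *Vangl1*-/- and the mutants *Vangl1*-/-; *Vangl2*-/-, so that both groups carried the *Vangl1* mutation and differed in *Vangl2*, a component of planar cell polarity. In the *Dermo1Cre* experiment at E12.5 the controls were *Wnt5a* f/+; *Dermo1Cre* and the mutants *Wnt5a* f/f; *Dermo1Cre*, with Cre active in the mesenchyme. In the *Sox9Cre* experiment at E13.5 the controls were *Wnt5a* f/+; *Sox9Cre* and the mutants *Wnt5a* f/f; *Sox9Cre*, with Cre active in the epithelium after branching has begun. By these stated genotypes, all libraries of the *Wnt5a* experiments carried Cre and at least 1 floxed allele. Each deletion touched only some of the lung's cells, and the number of embryos in a library is not stated. The question put to the data was whether another *Wnt* ligand gene changed where *Wnt5a* or its effectors were removed.

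Wnt proteins are secreted glycoproteins that carry a lipid and bind Frizzled receptors. With the coreceptors LRP5 and LRP6 they stabilize β-catenin (the canonical pathway), and with ROR and VANGL proteins they act on cell polarity and movement (the noncanonical pathway). In the embryonic lung, *Wnt2* and *Wnt2b* of the mesenchyme are needed for the lung to be specified and act through β-catenin. *Wnt7b* is made by the epithelium and promotes growth of both layers, *Wnt5b* is the closest relative of *Wnt5a*, and *Wnt4* and *Wnt11* can signal without β-catenin.

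The genes lie on different chromosomes or far apart (mm10, GENCODE positions). *Wnt2* lies on the minus strand at chr6:17988940-18030585 and *Wnt5b* on the minus strand at chr6:119432531-119544347. *Wnt2b* lies on the minus strand at chr3:104945272-104961921, *Wnt7b* on the minus strand at chr15:85535437-85582473, *Wnt4* on the plus strand at chr4:137277489-137299726 and *Wnt11* on the plus strand at chr7:98835112-98855195. Since related genes can share reads, the coding sequences of the 6 genes and *Wnt5a* were compared. Over the 21 pairs the longest identical run had between 11 and 29 bases, with a median of 17. The 2 longest runs belonged to the closest relatives, *Wnt5b* with *Wnt5a* (29 bases) and *Wnt2* with *Wnt2b* (24 bases), and are shown because a read from such a run could not by itself tell the 2 genes apart. Capitals mark the identical run, each window lies within 1 coding exon, and the sequence is that of the coding strand from 5′ to 3′.
Wnt2 (chr6:18008765-18008830, minus strand): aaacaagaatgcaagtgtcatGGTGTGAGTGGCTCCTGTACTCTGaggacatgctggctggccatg
Wnt2b (chr3:104951193-104951258, minus strand): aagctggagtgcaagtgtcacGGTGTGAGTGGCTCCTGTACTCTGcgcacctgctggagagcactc
Wnt5b (chr6:119433498-119433568, minus strand): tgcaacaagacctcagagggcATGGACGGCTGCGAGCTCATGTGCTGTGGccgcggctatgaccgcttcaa
Wnt5a (chr14:28522770-28522840, plus strand): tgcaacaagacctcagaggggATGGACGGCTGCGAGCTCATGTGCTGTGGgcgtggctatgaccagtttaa
The run shared by *Wnt2* and *Wnt2b* encodes the conserved stretch that holds the lipid-bearing serine. The 2 genes differ on both sides of the run. *Wnt7b* shares 324 exonic bases (6.61% of its exonic length) with the antisense gene *AU022754*, which had between 2.10 and 12.8 normalized counts in the 18 libraries. *Wnt11* shares 364 (8.8%) with the pseudogene *Gm8398* and *Wnt5a* 358 (4.58%) with the antisense gene *Gm2670*. Both lie on the other strand and are not among the counted genes. No strand setting of the counting is given in the sources used here, so reads of these stretches cannot be assigned to one gene or the other.

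Between 15945393 and 19814346 reads per library lay on genes. Values are given as normalized counts, the deposited unit, in which the count of a gene was scaled by 1 size factor for each library. *Vangl2* had 277, 406 and 334 normalized counts in the *Vangl1/2* controls and 86.5, 79.8 and 89.6 in their mutants, lower in every mutant as labelled. *Vangl1*, which carries a gene trap in both groups by the methods of the study, still had 162, 219 and 113 in those controls and 239, 274 and 242 in the mutants, under the 409 to 508 of the *Wnt5a* experiments but not near 0. Its groups did not overlap, with a log2 difference of 0.65 (SE 0.23, adjusted p = 0.233 by limma), and whether these transcripts encode a protein was not tested. *Dermo1Cre* is an allele of *Twist2* by the methods of the study. *Twist2* ranged from 145 to 319 normalized counts in the *Dermo1Cre* experiment. Its log2 difference of -0.72 was the lowest of 11 mesenchyme markers there, and whether the 2 groups carried Cre alike was not tested. Control replicate 2 of that experiment stood apart from the other controls. On the first principal component it lay at 17.0, beside the mutants at 15.1 to 21.5, while the other controls lay at -30.1 and -44.7. The ligand and pathway results of that experiment are therefore also given without it, where 50.9% of all genes had an unadjusted p under 0.05 and 43.6% an adjusted one. Since this library was singled out for lying with the mutants, leaving it out sets the groups further apart by the choice itself. Values and p-values without it are therefore given as a description and cannot serve as a test. Markers of heart muscle varied between libraries of the same group, with sums over 12 genes from 615 to 20377 normalized counts. They also differed between the *Sox9Cre* groups, where at an unadjusted p under 0.05 the mutants had lower values of 9 of the 12 (and of 2.81% of all genes), with a median log2 difference of -2.05 and sums of 5264 to 18563 in the controls and 1039 to 5716 in the mutants. Of 8 mesothelium markers there 5 were lower. Sums over 8 neuron markers were higher in all *Dermo1Cre* mutants (1102 to 2426) than in their controls (507 to 853).

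The ligand genes differed widely in level, and their order in the control libraries was nearly the same in the 3 experiments. On a scale of reads divided by exonic length in kb and by the reads on genes in the library (RPKM), *Wnt2* had the highest level, with 53.5 ± 10.3 (SD, n = 3) in the *Vangl1/2* controls, 57.4 ± 4.69 in the *Dermo1Cre* controls and 53.6 ± 3.78 in the *Sox9Cre* controls. *Wnt7b* came next with mean levels of 36.2, 28.3 and 28.4, followed by *Wnt11* with 6.85, 5.63 and 6.32. No control library of *Wnt7b* reached the level of *Wnt2*, and none of *Wnt11* reached that of *Wnt7b*. *Wnt2b* (3.15, 5.43 and 4.66) and *Wnt5b* (3.06, 2.99 and 3.28) formed a lower tier. *Wnt11* and *Wnt2b* overlapped in the *Dermo1Cre* controls, and *Wnt2b* and *Wnt5b* overlapped in the *Vangl1/2* controls, so that their order was not resolved there. *Wnt5a* itself lay among them at 2.13, 3.69 and 3.56, overlapping *Wnt5b* in the *Vangl1/2* and *Sox9Cre* controls. *Wnt4* was the lowest at 0.720, 1.12 and 1.07. Of the summed level per length of 19 *Wnt* ligand genes, *Wnt2* and *Wnt7b* together held between 76.8% and 87.8% in every one of the 18 libraries. The scaling differs between tables, so levels were ranked within each experiment only.

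**Figure D1:**
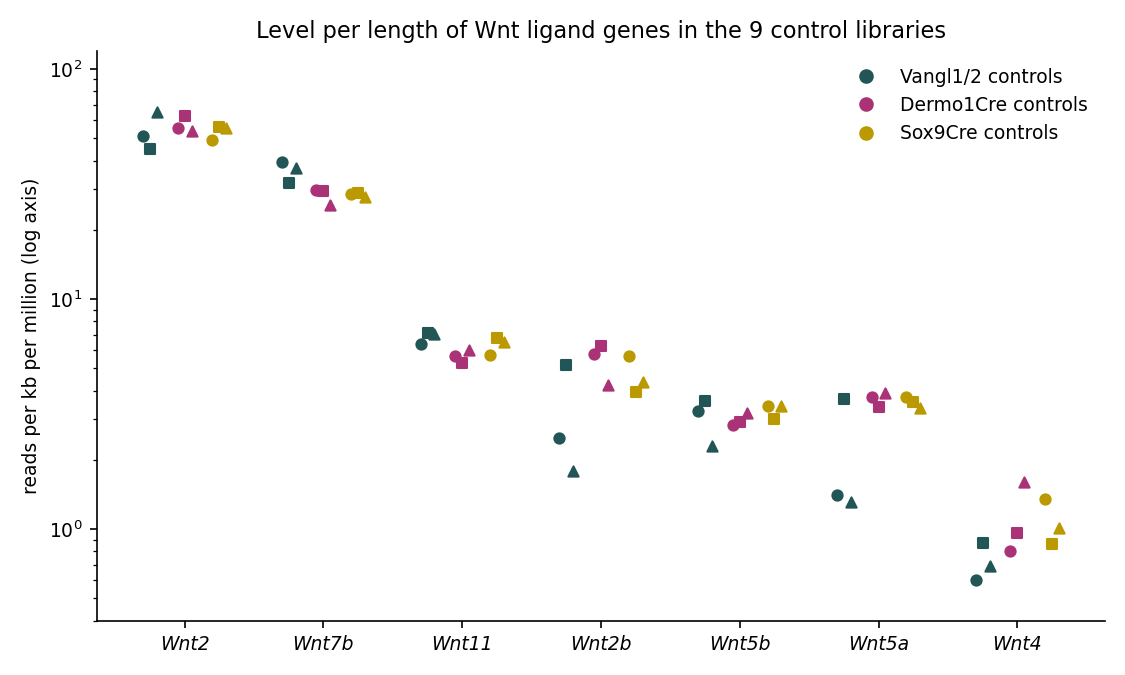
Level of 6 *Wnt* ligand genes and *Wnt5a* in the 9 control libraries, in RPKM on a log axis; colors give the experiment and circles, squares and triangles replicates 1, 2 and 3. *Wnt2* and *Wnt7b* lie above all others in every library, and *Wnt4* lies below all others.

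No ligand gene passed the test between mutants and controls in any experiment. With limma on log2(normalized count + 1) and Benjamini-Hochberg adjustment over all genes at 0.05, 0 of 6 were called in the *Vangl1/2* experiment, where 0.00699% of 14303 tested genes were called. In the *Dermo1Cre* experiment 0 of 6 were called against 0.014% of 14277 genes, and in the *Sox9Cre* experiment 0 of 6 against 0% of 14293 genes. At an unadjusted p under 0.05, *Wnt2b* (higher) and *Wnt11* (lower) were counted in the *Vangl1/2* experiment, where 20.5% of all genes were (12% as higher and 8.56% as lower). No ligand gene was counted at that level in the *Dermo1Cre* experiment (10.2% of all genes) or the *Sox9Cre* experiment (3.9%). On the recovered reads edgeR also called 0 of 6 in each experiment, and DESeq2 0 of 6 in the *Dermo1Cre* and *Sox9Cre* experiments. In the *Vangl1/2* experiment DESeq2 gave an adjusted p for *Wnt2* and *Wnt7b* only, and neither was called. The median log2 difference of the 6 genes was 0.03 in the *Vangl1/2* experiment, -0.06 in the *Dermo1Cre* experiment and -0.04 in the *Sox9Cre* experiment, beside medians over all tested genes of -0.01, 0.00 and 0.00. Control and mutant libraries did not overlap for 1 of the 6 genes (*Wnt11*) in the *Vangl1/2* and the *Dermo1Cre* experiment, beside 22.3% and 15.6% of all genes (63.8% in the *Vangl1/2* experiment without control replicate 2), and for 0 of 6 in the *Sox9Cre* experiment, beside 8.78%. Since few genes of any kind passed the adjusted threshold, the intervals are given with each gene to show what size of difference the libraries allow.

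**Figure D2:**
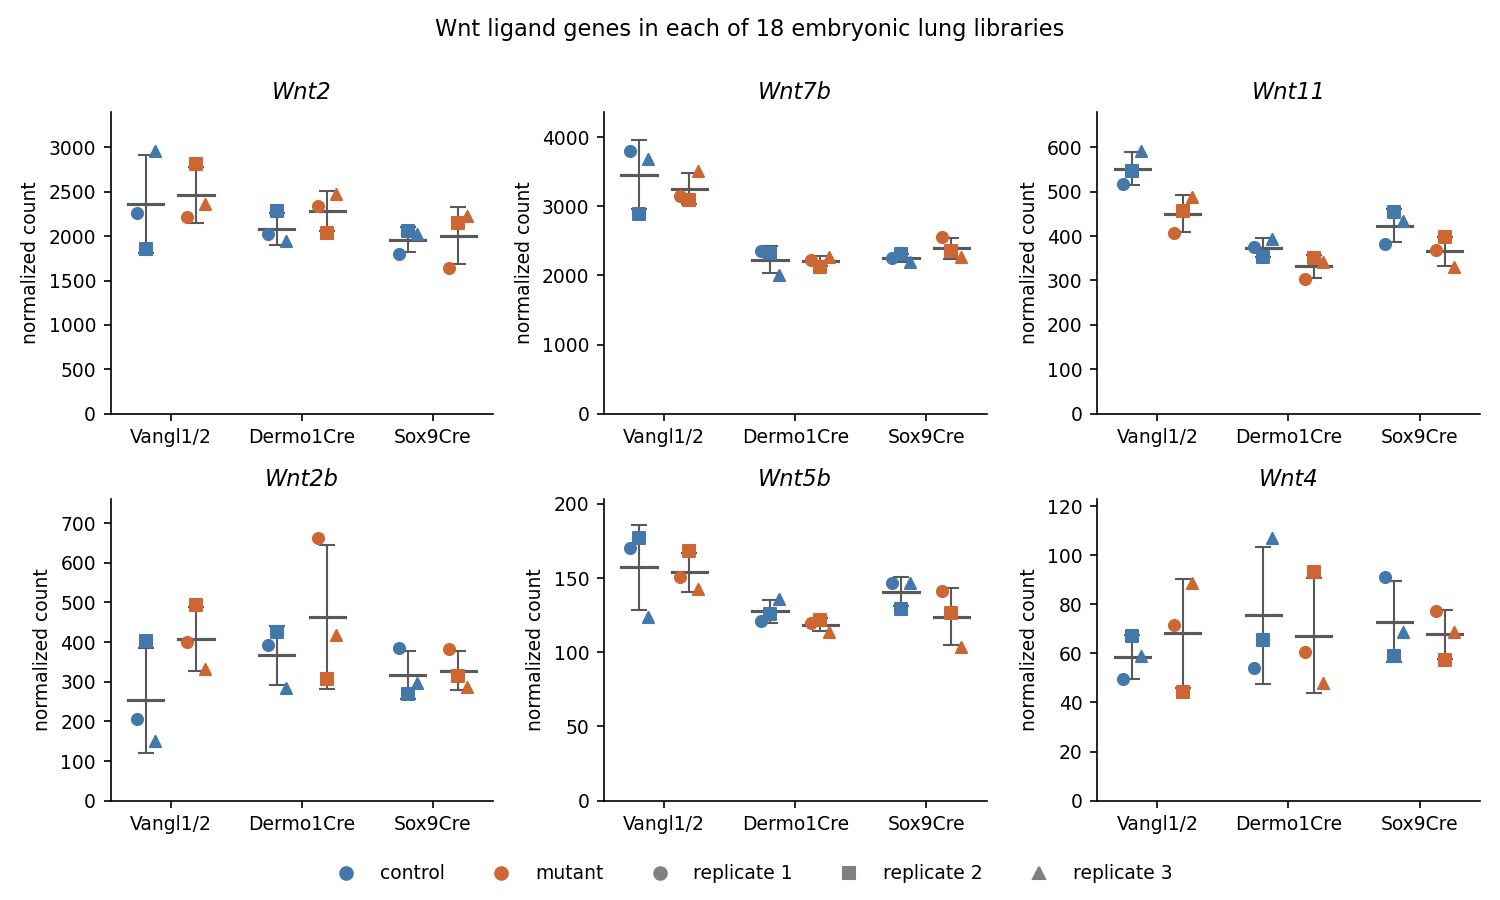
Normalized counts of the 6 ligand genes in each library (points; circles, squares and triangles are replicates 1, 2 and 3), with the mean (line) and SD (bar) of the 3 control (blue) and 3 mutant (orange) libraries of each experiment; each axis starts at 0. Only *Wnt11* shows mutants entirely under controls, in the *Vangl1/2* and *Dermo1Cre* experiments.

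**Figure D3:**
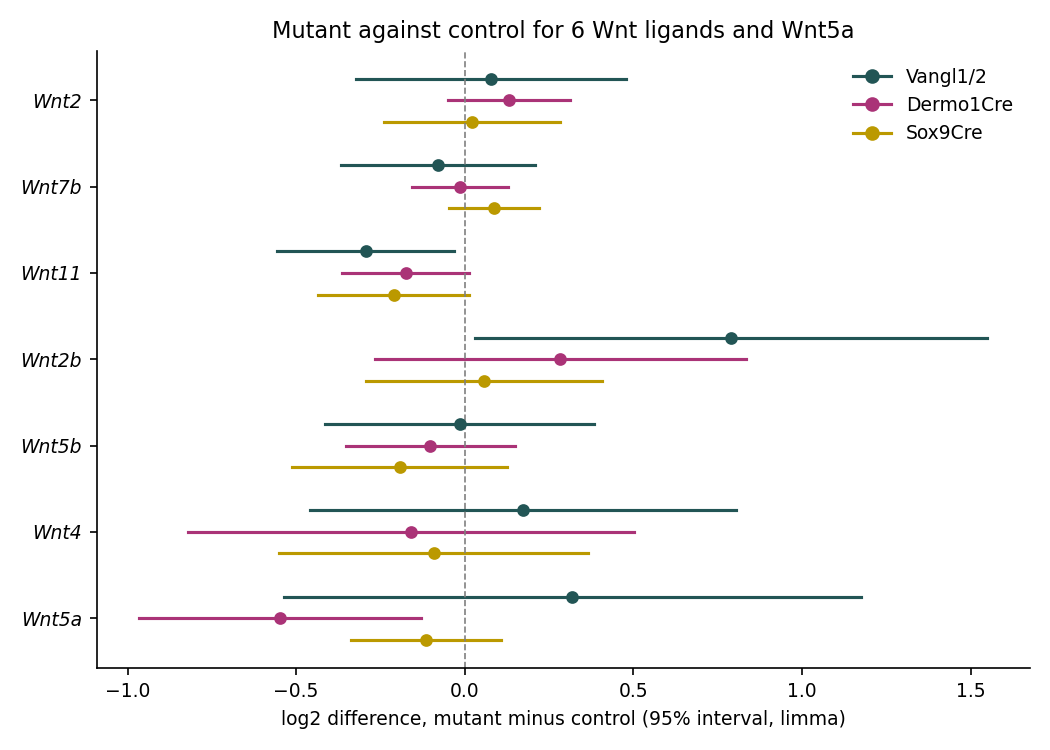
Log2 difference between mutant and control libraries with its 95% interval from limma, for each ligand gene and *Wnt5a* in the 3 experiments (n = 3 against 3). *Wnt11* lies to the left of 0 in all 3 experiments, and *Wnt4* has a wide interval in each of them.

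*Wnt5a*, the gene the 2 Cre lines act on, was lower in the *Dermo1Cre* mutants but not past the threshold. It had 472, 429.6 and 489 normalized counts in the controls and 317, 436 and 229.7 in the mutants. Mutant replicate 2 lay within the controls and the other 2 mutants under them, with a log2 difference of -0.55 (SE 0.19, adjusted p = 0.406 by limma). The *Sox9Cre* libraries had 473, 453 and 426 in the controls and 442, 362 and 448 in the mutants, which overlap, with a log2 difference of -0.12 (SE 0.10, adjusted p = 0.9999). It had 218, 529 and 208 in the *Vangl1/2* controls and 289, 313 and 516 in their mutants. The value of control replicate 2 exceeded every mutant there, and the log2 difference was 0.32 (SE 0.37, adjusted p = 0.615), or 0.76 (SE 0.21, adjusted p = 0.0166) without that library. A floxed gene can still give transcripts from the exons that Cre leaves in place, and the counts are sums over all exons, so they do not measure how much *Wnt5a* was deleted.

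*Wnt2*, the most abundant of the 6, did not pass the threshold in any experiment. It had 2020.2, 2287 and 1941 normalized counts in the *Dermo1Cre* controls and 2345, 2031 and 2475 in the mutants. The mutants with the lower *Wnt5a* (replicates 1 and 3) lay above all controls and replicate 2 lay within them. This gave a log2 difference of 0.13 (95% interval -0.05 to 0.31, adjusted p = 0.605 by limma). The *Sox9Cre* controls had 1796, 2056 and 2025 and the mutants 1638, 2143 and 2231, so that the mutants spanned the controls, with a log2 difference of 0.02 (-0.24 to 0.28, adjusted p = 0.9999). The *Vangl1/2* controls had 2266, 1861 and 2961 and the mutants 2211, 2814 and 2362, all within the range of the controls. Their log2 difference was 0.08 (-0.32 to 0.48, adjusted p = 0.801), and -0.08 (adjusted p = 0.635) without control replicate 2. With the trend on transcript length removed from each library it was 0.27 (SE 0.13, adjusted p = 0.365 by limma). It was 0.20 with that trend removed and control replicate 2 left out, so its size and sign depended on the processing.

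*Wnt2b*, the relative of *Wnt2* in the early lung mesenchyme, had the largest difference of the 6 genes, in the *Vangl1/2* experiment. It had 206, 403 and 151 normalized counts in the controls and 399.5, 493 and 331 in the mutants. All mutants exceeded control replicates 1 and 3, and control replicate 2 lay among the mutants. The log2 difference was 0.79 (95% interval 0.03 to 1.55, unadjusted p = 0.0434, adjusted p = 0.240 by limma). Without control replicate 2 it was 1.19 (SE 0.18, adjusted p = 0.000661), in a fit that called 6180 of 14162 genes. Leaving out each of the other 5 libraries gave between 0.48 and 0.93 and no call.

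Sums of lung mesenchyme markers were high in the same libraries. The sum over 11 mesenchyme markers, 52.3% of it *Col1a1* (a collagen), was 36804, 57927 and 28748 normalized counts in the *Vangl1/2* controls, with replicate 2 the highest, and between 44109 and 55894 in the mutants. By single markers the list was mixed, with 3 of 11 above and 2 below the controls at an unadjusted p under 0.05, beside 12% and 8.56% of all genes. The sum over the 8 mesothelium markers in the table (of 9 listed) was 6216, 6838 and 4884 in the controls and 7481, 10104 and 6081 in the mutants, so that mutant replicate 3 lay under 2 of the controls. In bulk RNA, more cells of a type and more RNA of a gene per cell cannot be told apart, and the part of these markers in the *Wnt2b* values was not tested. *Wnt2b* had 392, 426 and 283 in the *Dermo1Cre* controls and 663, 308 and 418 in the mutants, where mutant replicate 1 stood above the rest. This was a log2 difference of 0.28 (-0.27 to 0.83, adjusted p = 0.716 by limma), and -0.01 without that library. The *Sox9Cre* controls (386, 269 and 296) and the mutants (384, 314 and 287) covered the same range, with a log2 difference of 0.06 (-0.29 to 0.41, adjusted p = 0.9999).

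*Wnt7b*, the ligand of the epithelium, had the narrowest interval of the 6 in both *Wnt5a* experiments. It had 2358, 2322 and 2004 normalized counts in the *Dermo1Cre* controls and 2227, 2121 and 2262 in the mutants, all within the range of the controls. Their log2 difference was -0.01 (95% interval -0.16 to 0.13, adjusted p = 0.956 by limma). In the *Sox9Cre* experiment, in which Cre acts in the cells that make *Wnt7b*, the controls had 2254, 2308 and 2192 and the mutants 2561, 2359 and 2262. Mutant replicates 1 and 2 exceeded all controls, and the log2 difference was 0.09 (-0.05 to 0.22, adjusted p = 0.9999). The *Vangl1/2* controls had 3801, 2885 and 3688 and the mutants 3149.9, 3096 and 3512. Control replicate 2 was under all mutants and the other controls were above them. The log2 difference was -0.08 (-0.37 to 0.21, adjusted p = 0.714), and -0.21 (SE 0.07, adjusted p = 0.0448) without that library. The sum over 14 epithelium markers was 30357, 25466 and 30013 in those controls, again lowest in replicate 2, and 25724 to 29469 in the mutants. In the *Dermo1Cre* experiment it was 25576 to 27131 in the controls and 24405 to 24798 in the mutants, which lay under all controls. There 6 of the 14 markers were lower and 0 higher at an unadjusted p under 0.05, beside 4.76% and 5.42% of all genes. Among the *Sox9Cre* libraries the sums overlapped. The part of these markers in the *Wnt7b* values was not tested.

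*Wnt11* was lower in the mutants of all 3 experiments, without passing the threshold in any of them. In the *Vangl1/2* experiment it had 517, 546 and 592 normalized counts in the controls and 407, 457 and 487 in the mutants. All mutants lay under all controls, as they did for 8.68% of all tested genes. The log2 difference was -0.29 (95% interval -0.56 to -0.03, unadjusted p = 0.032, adjusted p = 0.233 by limma), and -0.30 (adjusted p = 0.0515) without control replicate 2. The *Dermo1Cre* controls had 376, 352 and 394 and the mutants 303, 351 and 341. The mutants again lay under all controls, as for 7.92% of all genes, although the highest mutant (351.3) and the lowest control (352.3) differed by about 1 normalized count. The log2 difference was -0.18 (-0.36 to 0.01, unadjusted p = 0.0626, adjusted p = 0.510). The *Sox9Cre* controls had 382, 454 and 434 and the mutants 368, 397 and 331, and only mutant replicate 2 rose above the lowest control. The heart muscle and mesothelium markers that were lower in the same mutants were not tested for a part in these values. The log2 difference was -0.21 (-0.43 to 0.01, unadjusted p = 0.0606, adjusted p = 0.9999). With 3 libraries against 3, an exact permutation test of a single gene cannot give a p under 0.1.

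The 3 experiments share no library, so their differences in *Wnt11* could be averaged in 1 limma fit over the 18 libraries, a step chosen after its values were seen. The mean log2 difference was -0.23 (SE 0.06, unadjusted p = 0.000942, adjusted p = 0.208 over 13980 genes, of which 0.00715% were called). Leaving out 1 library at a time gave between -0.25 and -0.20, with an adjusted p between 0.00642, without control replicate 2 of the *Vangl1/2* experiment, and 0.388. For *Wnt2b* the same mean was 0.38 (SE 0.18, adjusted p = 0.240), and 0.51 (adjusted p = 0.0116) without that control. The fit without that control called 4673 of the 13980 genes for this mean.

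Smooth muscle markers tended to be lower along with *Wnt11* in the 2 experiments at E12.5, with sums that overlapped between the groups. The sum over 6 markers, to which *Acta2* (smooth muscle actin) contributed 51.1% in the *Vangl1/2* experiment, was 9128 to 13160 normalized counts in the controls and 7119 to 10171 in the mutants there. Among the *Dermo1Cre* libraries it was 11699 to 16231 in the controls and 7907 to 12673 in the mutants. Among the *Sox9Cre* libraries it was 11427 to 14134 in the controls and 11625 to 13014 in the mutants, although *Wnt11* was lower there by a like amount. At an unadjusted p under 0.05, 4, 5 and 1 of the 6 markers were lower in the *Vangl1/2*, *Dermo1Cre* and *Sox9Cre* experiments, beside 8.56%, 4.76% and 2.81% of all genes. None was higher, no marker was at 0, and 3 were lower in the *Vangl1/2* experiment without control replicate 2, beside 25.6% of all genes. Their part in the *Wnt11* values was not tested. Over the 18 libraries, with each value centred on the mean of its own table, *Acta2* had the highest Pearson r with *Wnt11* among 13980 genes (r = 0.83, Spearman rho = 0.85). In the libraries of the *Wnt5a* experiments alone the Pearson r of *Acta2* was 0.69, under those of *Taz* (0.73) and *Renbp* (0.79), so its first rank did not hold there. The plot of both genes shows the 3 lowest *Acta2* values in mutant libraries. Within each table the points share the scaling of the table and the difference between mutants and controls.

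**Figure D4:**
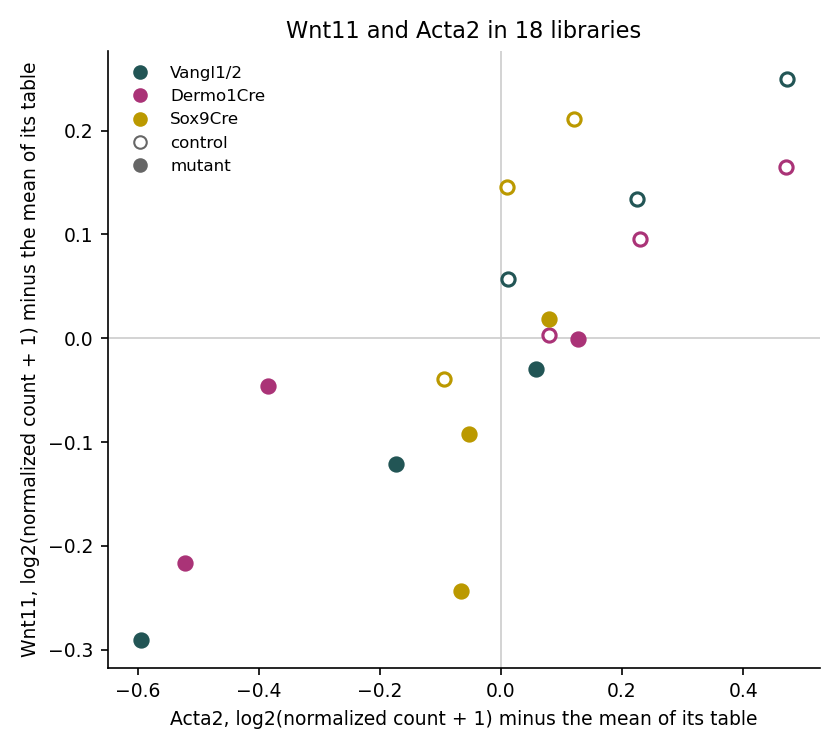
*Wnt11* against *Acta2* in the 18 libraries, each as log2(normalized count + 1) minus the mean of its own table; colors give the experiment, open circles controls and filled circles mutants. The lowest value of each gene was in a mutant and the highest in a control, with the groups mixed between them. *Sox9Cre* control replicate 1 lay under the mean of its table for both genes, and *Sox9Cre* mutant replicate 2 above it for both. The *Sox9Cre* libraries were spread over *Wnt11* more than over *Acta2*.

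*Wnt5b*, the closest relative of *Wnt5a*, was not higher in either *Wnt5a* mutant. It had 121, 125 and 136 normalized counts in the *Dermo1Cre* controls and 120, 122 and 114 in the mutants, which overlap. Their log2 difference was -0.10 (95% interval -0.35 to 0.15, adjusted p = 0.780 by limma). The *Sox9Cre* controls had 147, 129 and 147 and the mutants 142, 127 and 104. Mutant replicate 3 was the lowest of the 6 libraries, and the log2 difference was -0.19 (-0.51 to 0.13, adjusted p = 0.9999). The *Vangl1/2* mutants (151, 169 and 143) lay within the controls (170.4, 177 and 124), with a log2 difference of -0.01 (-0.41 to 0.38, adjusted p = 0.965) that was 0.080 without control replicate 2.

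*Wnt4*, which is needed for normal growth of the lung and trachea, was the least abundant of the 6, with the widest interval in both *Wnt5a* experiments. It had 54.1, 65.2 and 107 normalized counts in the *Dermo1Cre* controls and 60.5, 93.3 and 47.9 in the mutants. The *Sox9Cre* controls had 91.2, 58.7 and 68.8 and the mutants 77.1, 57.3 and 68.7. The *Vangl1/2* controls had 49.6, 67.1 and 58.9 and the mutants 71.5, 44.3 and 88.6. The groups overlapped in every experiment, with log2 differences of -0.16 (95% interval -0.82 to 0.50), -0.09 (-0.55 to 0.37) and 0.17 (-0.46 to 0.80) in the same order and adjusted p of 0.879, 0.9999 and 0.721 by limma. Without control replicate 2 the *Vangl1/2* value was 0.27.

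**Figure D5:**
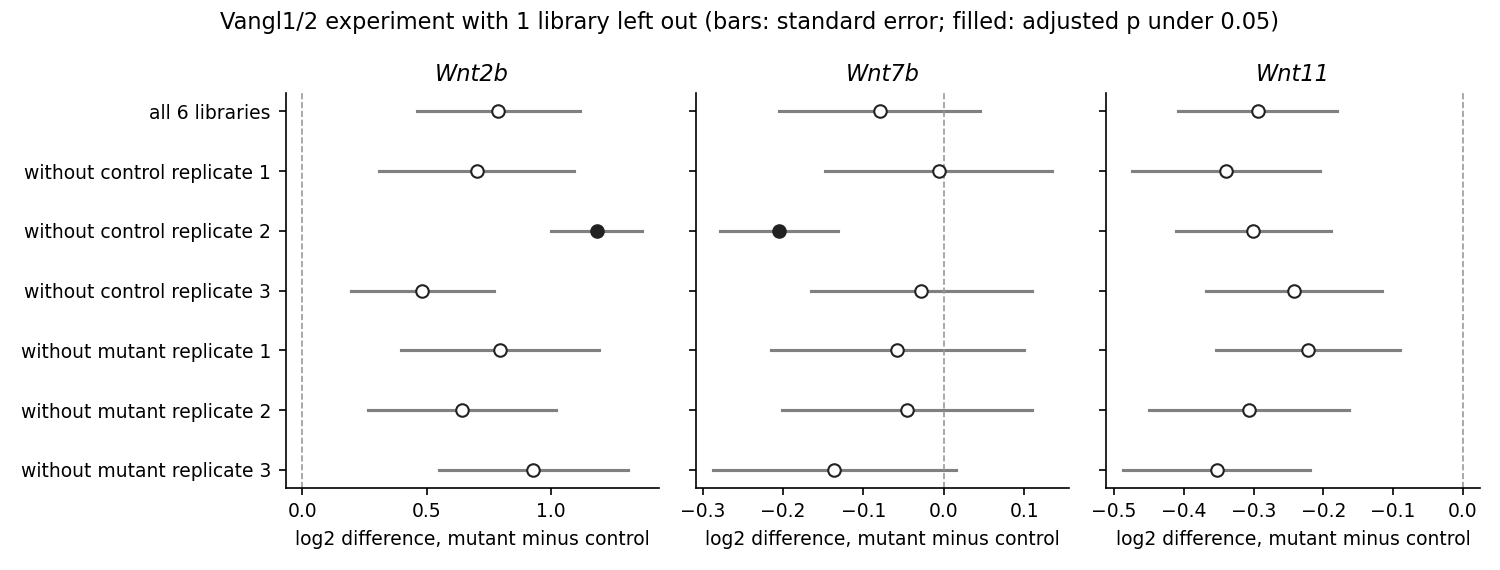
Log2 difference of *Wnt2b*, *Wnt7b* and *Wnt11* in the *Vangl1/2* experiment with all 6 libraries and with each left out in turn; bars are standard errors of the limma fit, and filled circles have an adjusted p under 0.05. *Wnt2b* and *Wnt7b* are called only without control replicate 2, and *Wnt11* stays under 0 whichever library is left out.

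Whether the effects differed between experiments was tested in 1 limma fit over the 18 libraries, as a contrast of 2 differences each taken within its own table. Over the 6 ligand genes and 3 pairs of experiments, 0 of 18 tests passed an adjusted p of 0.05 and 0 an unadjusted p of 0.05. Among all genes, 0.0143% were called between the *Vangl1/2* and *Dermo1Cre* experiments, 0.0143% between the *Vangl1/2* and *Sox9Cre* experiments and 0% between the *Wnt5a* experiments. The largest of the 18 was *Wnt2b* in the *Vangl1/2* minus the *Sox9Cre* experiment, at 0.73 (SE 0.43, adjusted p = 0.284), which was 1.13 (adjusted p = 0.0181) without control replicate 2. That contrast called 5501 of 13980 genes once the library was left out. For *Wnt11* the 3 contrasts lay between -0.12 and 0.04 (SE 0.14), with an adjusted p of 0.650 or more. The ligand differences of the 3 mutants were thus not told apart with all libraries.

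Among single libraries, *Wnt2* tended to be high where *Wnt5a* was low. Over the 18 libraries, each value centred on its own table, Pearson r of *Wnt2* with *Wnt5a* was -0.60, and within the 6 libraries of a table it was -0.58 in the *Vangl1/2*, -0.88 in the *Dermo1Cre* and -0.39 in the *Sox9Cre* experiment. *Wnt4* ran with *Wnt5a* (r = 0.59 over the 18 libraries). *Wnt2* also ran against *Wnt5b* (r = -0.64) and *Wnt4* (r = -0.54), and *Wnt2b* against *Wnt11* (r = -0.64). The pairs named are those with the highest absolute r over the 18 libraries among the 21 pairs, so they were picked by their values. In the *Vangl1/2* experiment control replicate 2 had the lowest *Wnt2* (1861 normalized counts) and the highest *Wnt5a* (529), and r without it was not computed. These are descriptions over 18 points that share scaling and group within a table, and *Wnt2* and *Wnt5a* also differ in exonic length (2255 and 7823 bases).

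The rest of the *Wnt* machinery was counted over 6 lists with 73 genes, of which 58 were tested in each experiment. No gene of them passed an adjusted p of 0.05 by limma. At an unadjusted p under 0.05, 10 were higher and 0 lower in the *Vangl1/2* mutants, where 12% of all genes were higher and 8.56% lower. In the *Dermo1Cre* mutants 2 were higher and 4 lower, beside 5.42% and 4.76% of all genes, and in the *Sox9Cre* mutants 1 was higher and 2 lower, beside 1.08% and 2.81%. The genes named from these lists are given as values only. By role, 6 of the 10 in the *Vangl1/2* experiment were among the 16 receptors and coreceptors, whose median log2 difference was 0.28 beside -0.01 over all genes. Without control replicate 2, 28 of the 58 were higher and 3 lower, beside 25.3% and 25.6% of all genes, and the receptors, with 10 of 16 higher, had a median of 0.40.

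The receptors with the smallest p there were *Ror1*, a receptor of WNT5A, and the Frizzled genes *Fzd3* and *Fzd7*. Mean normalized counts of *Ror1* were 1016 ± 262 in controls and 1607 ± 46.6 in mutants (SD, n = 3), *Fzd3* 836 ± 218 and 1277 ± 69.0, and *Fzd7* 3007 ± 515 and 3936 ± 311. The wide spread of the controls holds control replicate 2, and the adjusted p was 0.233 for each by limma. Without that library their log2 differences changed from 0.69, 0.64 and 0.40 to 0.89, 0.84 and 0.53. *Rspo2*, whose product amplifies Wnt signals, had 1172 ± 32.1 and 1559 ± 157 there. *Lef1* and *Tnfrsf19*, read as targets of the canonical pathway, had log2 differences of 0.27 (SE 0.09) and 0.24 (SE 0.09), and *Trabd2b*, which encodes a membrane protease that inactivates Wnt proteins, had 0.79 (SE 0.33). Without control replicate 2 these were 0.25, 0.27 and 1.153, and *Rspo2* changed from 0.41 to 0.43. All 7 genes then had an adjusted p under 0.05, the highest being 0.0179 for *Lef1*, in the fit that called 43.6% of all genes.

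In the *Dermo1Cre* mutants, *Rspo2* was again higher at an unadjusted p under 0.05, with a log2 difference of 0.17 (SE 0.06), as was *Vps35* (0.09, SE 0.04), whose product returns the Wnt carrier WLS to the Golgi. Lower were *Ror2*, the other ROR receptor (-0.14, SE 0.05), the coreceptor gene *Lrp5* (-0.14, SE 0.06), *Tcf7l1*, a transcription factor of the pathway (-0.23, SE 0.08), and *Myocd*, a coactivator of smooth muscle genes (-0.51, SE 0.10). Mean normalized counts of *Myocd* were 297 ± 37.8 in controls and 207 ± 2.47 in mutants (adjusted p = 0.189 by limma). In the *Sox9Cre* mutants the receptor gene *Fzd6* had 314 ± 6.74 in the controls and 267 ± 2.13 in the mutants, *Fzd9* 14.3 ± 3.23 and 27.3 ± 9.52, and *Sfrp1*, which encodes a secreted antagonist, 2856 ± 258 and 2315 ± 175. Each had an adjusted p of 0.9999 by limma.

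The genes whose pattern over the 18 libraries was most like that of each ligand, by Pearson correlation of table-centred log2 values among 13980 genes, are given as a description. *Wnt2* was most like *Asz1* (r = 0.85), *Ap3m1* (0.80) and *Cdc73* (0.80). *Asz1* is the next gene on the same strand, at chr6:18050964-18109061, with 20378 bases between the 2 genes, and had between 94.1 and 183 normalized counts. *Wnt2b* was most like the receptor gene *Fzd1* (0.89), *Adamts19* (0.87) and *Ganab* (0.87), and over the 12 libraries of the *Wnt5a* experiments alone the r with *Fzd1* was 0.75.

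*Wnt5b* was most like *Fkbp10* (0.90), which encodes a collagen chaperone, *Chpf* (0.90), which encodes an enzyme of chondroitin synthesis, and *Sparc* (0.88), which encodes a matrix protein. *Wnt7b* was most like *Vps52* (0.89), *Dhx16* (0.89) and *Pcca* (0.87). *Wnt4* was most like *Lrrc17*, *Gpr37* and *Ssh3* (r between 0.80 and 0.81). *Wnt11* followed *Acta2* with *Taz* and *Renbp* (r of 0.81 and 0.80). Ranking 13980 genes on 18 points gives high values by selection alone, and no test was made of them.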

How the data were processed

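Gene counts of 18 libraries were made by the authors, whose processing notes name Trim Galore, HISAT2, featureCounts, DESeq2 and the mm10 build, with no versions; strand setting and read length are not given in the sources used here. The deposited values are a signal: counts divided by a size factor per library. Whole reads were recovered from them in all 18 libraries (largest deviation 3.74e-05 reads). The authors' own columns of mean, log2 fold change and p-value were not used.

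Genes were tested that reached 10 normalized counts in 3 or more of a table's 6 libraries, with limma (3.58.1, R 4.3.3; trend) on log2(value + 1), with Benjamini-Hochberg adjustment over all genes at 0.05. A log2 difference on this scale understates the change of low genes. Experiments were compared by contrasts in 1 fit of 18 libraries. edgeR (4.0.16) and DESeq2 (1.42.0) ran on recovered reads as alternatives. Exonic lengths (GENCODE M21, mm10) were found for 98.4% of 23418 names. The procedure was tested on simulated data. P-values measure the spread between libraries, whose origin from separate embryos the labels do not state. Counts limit precision through counting error as well, which is largest for *Wnt4*.

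The 6 ligands, the pathway and marker lists and the rule for named genes (all 6 ligands and *Wnt5a*; the 3 genes per list and experiment with the smallest unadjusted p under 0.05; the 3 genes most like each ligand) were chosen with earlier results of these data known. Replicates share numbers across groups, and same-numbered libraries showed little likeness in their deviations (correlations from -0.22 to 0.30). No block was used in the main tests, and a replicate block was run as an alternative.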

Additional observations from a re-analysis of the deposited data

How the results depend on the processing

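With all libraries kept, 187 of 189 ligand and *Wnt5a* values kept their direction and their side of the threshold. Values for which DESeq2 gave no adjusted p were counted among these as not called. *Wnt5b* in the *Vangl1/2* experiment changed from -0.01 to 0.14 with the trend on transcript length removed, and *Wnt11* there had an adjusted p of 0.0414 in a limma fit of all 18 libraries. For that experiment the fit called 1 of the 6 ligand genes, beside 3233 of all 13980 genes, so the call does not set *Wnt11* apart. Over the alternatives, adjusted p ranged for *Wnt11* there from 0.0414 to 0.594 and for *Wnt2b* from 0.000661 to 0.594; DESeq2 gave none for these or for *Wnt4*, *Wnt5b* and *Wnt5a* there.

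With 1 library left out, the ligand genes called ranged from 0 to 2 in the *Vangl1/2* experiment, and stayed at 0 in the *Dermo1Cre* and *Sox9Cre* experiments. The 2 (*Wnt2b* and *Wnt7b*) appeared without control replicate 2, and also there with the length trend removed, an alternative chosen after seeing the data, where *Wnt2b* was 1.22 and *Wnt7b* -0.24, 3947 genes were called and *Wnt5b* was 0.30. Tests between experiments passed by ligand genes ranged from 0 to 2. The 2 were between the *Vangl1/2* and *Sox9Cre* experiments with *Vangl1/2* control replicate 2 left out, where 5501 of 13980 genes were called. Log2 differences that changed sign with 1 library left out ranged, in the *Vangl1/2* experiment, from -0.081 to 0.25 for *Wnt2*, from -0.044 to 0.45 for *Wnt4* and from -0.18 to 0.080 (0.30 with the length trend also removed) for *Wnt5b*. In the *Dermo1Cre* experiment they ranged from -0.011 to 0.54 for *Wnt2b*, from -0.42 to 0.12 for *Wnt4* and from -0.088 to 0.030 for *Wnt7b*, and in the *Sox9Cre* experiment from -0.062 to 0.16 for *Wnt2*, from -0.061 to 0.21 for *Wnt2b* and from -0.23 to 0.079 for *Wnt4*.

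Among all genes, limma called 1, 2 and 0 in the *Vangl1/2*, *Dermo1Cre* and *Sox9Cre* experiments, DESeq2 11, 101 and 9, the fit of all 18 libraries 3233, 0 and 0, and leaving out 1 library 0 to 6180, 0 to 52 and 0 to 13. With the replicate block, 0, 16 and 0 genes and 0 ligand genes were called. With that block *Wnt2b* in the *Vangl1/2* experiment had an unadjusted p of 0.0028 (SE 0.18, adjusted p = 0.214 by limma). *Wnt11* in the *Sox9Cre* experiment had 0.0398 (adjusted p = 0.921). Same-numbered libraries correlated between -0.22 and 0.30 in their deviations, and the best match had the same number in 2 of 9 cases. These values cannot settle whether equal numbers pair the libraries.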

Other observations

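Of the 12 other *Wnt* ligand genes in the tables, *Wnt9a* and *Wnt6* passed the filter on low values in every experiment, and the highest value of the other 10 in any library was 8.20 normalized counts (*Wnt7a*). *Wnt9a* had 77.3 ± 12.6 normalized counts (SD, n = 3) in the *Sox9Cre* controls and 56.3 ± 13.1 in the mutants, a log2 difference of -0.46 (SE 0.21, adjusted p = 0.9999 by limma). In the *Dermo1Cre* experiment it had 63.2 ± 6.12 and 76.0 ± 8.74 (0.26, SE 0.16, adjusted p = 0.609), and in the *Vangl1/2* experiment 74.9 ± 37.8 and 82.3 ± 23.5 (0.21, SE 0.36, adjusted p = 0.732; 0.59, adjusted p = 0.0942, without control replicate 2). *Wnt6* had mean values between 17.0 and 20.3 in the 6 groups, and its log2 differences lay between -0.31 and -0.09.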
